A study of Mus musculus with 12 samples.

Results

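The genes described here build the synapse: 37 genes for the release of synaptic vesicles, for adhesion across the synaptic cleft and for the scaffold beneath the postsynaptic membrane, with no receptor subunits. They were taken by name, though with earlier results of these data known. All 37 were listed in both gene tables, among 43309 features at day 5 and 42802 at day 9. By role they comprise 10 genes of vesicle fusion and its sensors, 5 of the vesicle membrane and vesicle pool, 3 vesicle transmitter transporters, 4 active zone genes, 5 adhesion genes and 10 postsynaptic scaffold genes. Their RNA was measured in mouse neural progenitor cells (strain C57BL/6), cultured dividing precursors of neurons and glia kept in EGF and FGF-2 at 10 ng/ml each. The question was how loss of lamin B1, a protein of the nuclear lamina encoded by Lmnb1, changes their RNA. Cells of the cKO groups were LaminB1fl/fl and those of the WT groups LaminB1+/+. Both genotypes carried Ai3, a reporter that makes EYFP once Cre has acted, and both received a lentivirus with Cre under a Sox2 promoter. EYFP-positive cells were sorted after 5 or 9 days, so each library holds cells in which Cre acted, and the WT groups share the virus, Cre and the sort. There were 12 libraries of polyadenylated RNA in 4 groups of 3. Whether the replicates of a group came from different cultures or animals is not labelled, and the p-values therefore measure only the spread among these libraries, which may be technical.

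Synaptic vesicles fuse when a SNARE protein on the vesicle, a synaptobrevin encoded by the Vamp genes, zips together with the plasma membrane SNAREs syntaxin and SNAP-25, with synaptotagmin as the calcium sensor and complexin as a clamp and helper. The active zone, built on Bassoon, Piccolo and RIM proteins, holds vesicles at the release site, and neurexins and neuroligins bind each other across the cleft. On the receiving side PSD-95 and its relatives (the Dlg genes), Shank and Homer proteins form the postsynaptic density. Whether these progenitor cells take part in synapses was not tested. Several of these families also serve general membrane traffic and cell polarity and are transcribed outside neurons.

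Promoter sequences of 30 of the 37 genes were matched by symbol to RefSeq (GRCm38.p6, 250 bases before to 50 bases after the transcript start, 48 promoters). They are shown so that the genes with the smallest adjusted p at day 9 (Rab3a, Vamp1 and Dlg4) can be set beside the only genes of the set in which a searched motif was found (Syn1 and Nlgn1, chosen after the search). Both strands were searched for the cAMP response element TGACGTCA and for the left part TTCAGCACC and the right part GACAGNGCC of RE1, the site bound by the neuronal gene repressor REST. The cAMP response element stood in 1.79% of all 32851 RefSeq mouse promoters of that length, the left RE1 part in 0.371% and the right part in 1.51%. Among the 48 promoters of the synaptic genes, the left RE1 part occurred in 2 (Syn1 and Nlgn1), the cAMP response element in 1 (Syn1) and the right RE1 part in none. Only exact letters were counted, so a part with 1 changed letter was missed. In Syn1 the bases gtcagagcc, which differ from the right part in 1 letter, follow shortly after the left part. This near match was seen after the search and is not in capitals. Capitals mark the matches. In Syn1 (chrX:20920869-20921168, minus strand) the left RE1 part begins at position -232 from the transcript start and the cAMP response element at -159, with 64 bases between them. In Nlgn1 (chr3:26153937-26154236, minus strand) the left RE1 part begins at -153. The promoters shown for Vamp1 (chr6:125215331-125215630, plus strand), Rab3a (chr8:70754453-70754752, plus strand) and Dlg4 (chr11:70016953-70017252, plus strand; the most upstream of its 3 entries) hold none of these letters, nor do the other entries of Rab3a and Dlg4. A match of letters is a description of the sequence and not evidence of binding.
Syn1: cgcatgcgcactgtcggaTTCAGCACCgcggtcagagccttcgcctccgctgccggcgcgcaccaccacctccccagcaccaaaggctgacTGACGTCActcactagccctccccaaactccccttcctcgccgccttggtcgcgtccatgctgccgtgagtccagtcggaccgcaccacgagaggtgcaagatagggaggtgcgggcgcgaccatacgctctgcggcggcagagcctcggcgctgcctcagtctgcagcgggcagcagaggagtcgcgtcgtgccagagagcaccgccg
Nlgn1: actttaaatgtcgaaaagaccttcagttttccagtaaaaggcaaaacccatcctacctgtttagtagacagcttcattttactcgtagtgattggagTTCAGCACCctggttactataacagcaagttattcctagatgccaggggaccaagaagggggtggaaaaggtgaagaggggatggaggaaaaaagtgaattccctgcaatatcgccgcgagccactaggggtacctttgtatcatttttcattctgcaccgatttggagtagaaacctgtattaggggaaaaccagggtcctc
Vamp1: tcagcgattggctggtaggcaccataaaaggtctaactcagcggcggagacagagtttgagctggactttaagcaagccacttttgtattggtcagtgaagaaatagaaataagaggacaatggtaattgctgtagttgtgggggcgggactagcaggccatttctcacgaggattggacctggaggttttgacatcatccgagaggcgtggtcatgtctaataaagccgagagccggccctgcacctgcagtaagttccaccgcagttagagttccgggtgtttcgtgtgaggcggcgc
Rab3a: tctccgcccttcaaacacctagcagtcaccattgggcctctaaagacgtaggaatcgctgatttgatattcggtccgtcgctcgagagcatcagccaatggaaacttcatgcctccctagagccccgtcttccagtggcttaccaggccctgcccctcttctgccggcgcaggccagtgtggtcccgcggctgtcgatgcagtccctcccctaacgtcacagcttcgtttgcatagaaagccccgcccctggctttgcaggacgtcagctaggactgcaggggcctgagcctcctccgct
Dlg4: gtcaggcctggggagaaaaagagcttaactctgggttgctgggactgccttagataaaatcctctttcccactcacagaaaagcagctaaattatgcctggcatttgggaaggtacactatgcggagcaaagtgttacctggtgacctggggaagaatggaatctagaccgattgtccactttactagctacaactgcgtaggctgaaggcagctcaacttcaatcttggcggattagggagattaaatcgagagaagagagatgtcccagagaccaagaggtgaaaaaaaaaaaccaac

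Library totals ran from 26720476 to 32127629 counts at day 5 and from 13315273 to 24662809 at day 9. Lmnb1 itself was lower in every cKO library than in every WT library, at 247 to 288 CPM in WT against 37.8 to 45.0 CPM in cKO at day 5, and at 156 to 210 against 32.8 to 39.4 CPM at day 9. Here and below CPM is the count of a gene scaled to a common library size by the trimmed mean method (TMM) within a day. Libraries of the same genotype and day also differed from each other, and the origin of this was not tested. A group of 12 structural RNA features, chiefly Gm42418 and including the protein-coding Lars2, held 15.9%, 34.9% and 17.9% of all counts of WT libraries 1, 2 and 3 at day 9, against 72.2%, 0.361% and 70.9% of cKO libraries 1, 2 and 3. At day 5 the share was 0.0743% to 0.508% in all libraries but cKO 2, where it was 14.2%. The progenitor marker Sox2 was at 248 ± 30.1 CPM in WT against 261 ± 21.1 CPM in cKO at day 9 (SD, n = 3). Summed markers at day 9 moved with genotype. The 14 neuron markers summed to 163 to 325 CPM in the WT libraries and to 561 to 618 CPM in the cKO libraries, and the 12 progenitor markers to 2991 to 3434 and 1519 to 1686 CPM. The 10 astrocyte markers summed to 2112 to 2434 CPM in WT against 3223 to 3879 CPM in cKO. The 14 oligodendrocyte lineage markers summed to 3036 to 3494 CPM in WT and to 4415 to 5474 CPM in cKO. Gpr17 alone, singled out after its values were seen, made up 347.1, 248.8 and 472.4 CPM of these lineage sums in WT. In cKO Gpr17 made up 2086, 2209 and 1769 CPM, and it accounted for most of the difference between the groups. Of the 13 lineage markers tested, 9 were higher and 4 lower, so the sum does not stand for the whole lineage. Microglial markers summed to at most 1.27 CPM, with Aif1 and C1qa at 0, and endothelial and mural markers to at most 6.61 CPM, with Cdh5 and Lum at 0. In these bulk libraries more cells of a type and more RNA per cell cannot be told apart.

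Measured per transcript length, the set spanned a wide range. On the TPM scale, rescaled without the structural RNA features, the highest level in WT at day 9 was that of Syt11, a synaptotagmin that does not bind calcium, at 311 ± 41.9 (SD, n = 3). It was followed by the neurexin gene Nrxn2 at 173 ± 5.41, Vamp3 (cellubrevin, a SNARE of endosomal traffic in many cell types) at 147 ± 16.05 and Vamp2 at 112 ± 8.50. The lowest Vamp3 library (129 TPM) lay above the highest Vamp2 library (121 TPM). Nlgn2, Dlg4 (encoding PSD-95) and Nlgn3 followed at 97.1, 89.8 and 86.4 TPM, and these neighbours overlapped between libraries. Rab3a, Sv2a, Syn1 and Cplx1 lay in the middle of the order, at 24.98, 24.9, 22.2 and 21.6 TPM. Snap25, the plasma membrane SNARE of neurons, was at 2.69 ± 0.63 TPM and Syt1, the calcium sensor of fast release, at 1.18 ± 0.15 TPM. Rims1, an active zone organizer, was at 0.81 ± 0.67 TPM and Pclo, encoding Piccolo, at 0.66 ± 0.20 TPM.

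The vesicle transmitter transporters, which fill vesicles with glutamate (Slc17a6, Slc17a7) or with GABA and glycine (Slc32a1), were at or near 0 at both days. Slc17a6 had 0 counts in all 12 libraries, which allows at most 0.0754 to 0.468 CPM per library at day 9 (3 counts, covering counting error only). Slc32a1 had a count of 1 in WT 3 at day 9 and 0 elsewhere. Slc17a7 had 5 to 16 counts per library at day 5 and 0 to 5 at day 9. These values were too low to show a difference between the genotypes at day 9.

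At day 9, 9 synaptic genes were higher in cKO, 3 were lower and 21 of the 33 tested did not pass the test (edgeR's quasi-likelihood test, adjusted p under 0.05 over all 14617 genes tested). Slc17a6, Slc17a7, Slc32a1 and the scaffold gene Dlg2 were below the filter on low counts. Over all genes tested, 21% were called higher and 22.6% lower (43.6% in either direction), and 12 calls among 33 genes lie below that background. An unadjusted p under 0.05 was found for 16 of the 33. The groups did not overlap for 18 of the 33, with cKO above WT in 14 and below in 4, beside 27.6% and 30.2% of all genes tested (57.8% in either direction). The median log2 fold change was 0.24 for the set and 0.01 for all genes tested. The higher genes were the SNARE genes Vamp1 and Vamp2, the active zone genes Rab3a, Rims1 and Pclo, the adhesion gene Nlgn1 and the scaffold genes Dlg1, Homer1 and Shank3. Vamp3, the vesicle tether gene Syn1 and Dlg4 were lower. The calls of Vamp1, Rab3a, Dlg1, Shank3, Syn1 and Dlg4 held whichever of the 6 libraries was left out, and those of the other 6 were each lost without at least 1 library. On TPM as deposited, and on library totals without TMM, none of the 33 passed. Vamp2, Homer1 and Shank3 then changed sign on TPM, and Vamp2 on library totals and rescaled TPM as well, although each stayed above the median of all genes on those scales.

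**Figure D1:**
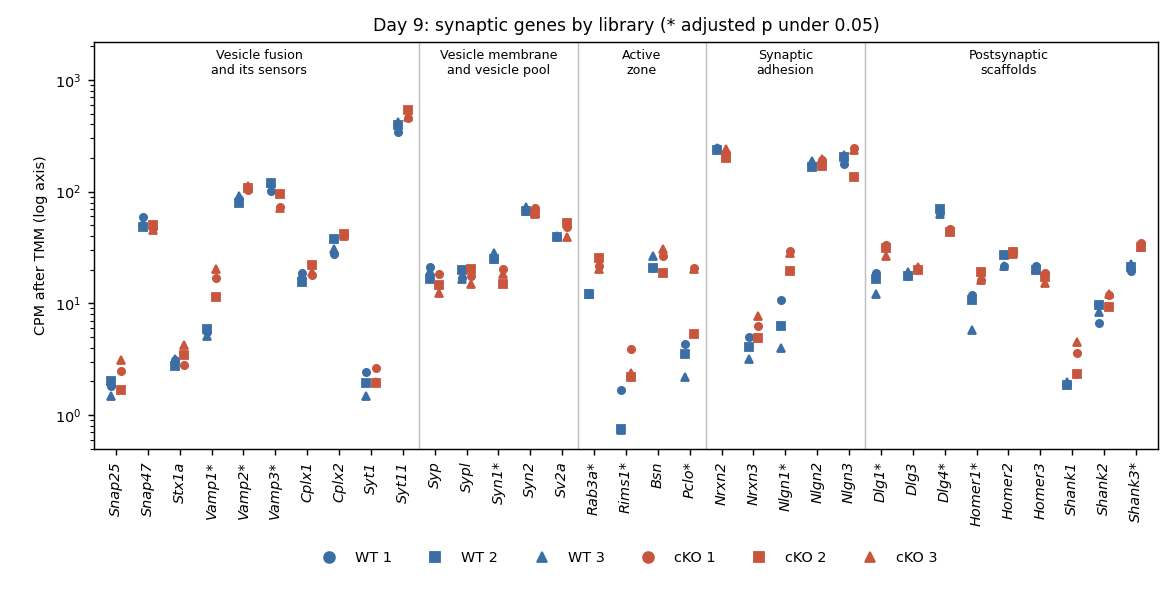
CPM after TMM scaling (log axis) of the 33 tested synaptic genes in each of the 6 day 9 libraries, WT in blue and cKO in red, with marker shapes for replicates 1 to 3 and asterisks for an adjusted p under 0.05. The groups do not overlap for any of the 12 starred genes, and cKO 2 lies nearest to WT for Pclo.

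Among the genes of vesicle fusion, 2 of 10 rose, 1 fell and 7 did not pass (median log2 fold change 0.27), and all 3 that passed were synaptobrevin relatives. Vamp1 (chr6:125215551-125245964, plus strand, mm10) encodes a synaptobrevin best known from motor and brainstem synapses. It was at 5.48, 5.92 and 5.06 CPM in WT libraries 1, 2 and 3 and at 16.99, 11.3 and 20.3 CPM in cKO libraries 1, 2 and 3. Every cKO library was above every WT library, with a log2 fold change of 1.55 ± 0.22 (SE, adjusted p 0.0012). Vamp2 (chr11:69088490-69092384, plus strand), the main synaptobrevin of forebrain synapses, was at 85.5, 78.4 and 92.3 CPM in WT against 103, 109 and 112 CPM in cKO. The groups stood close but apart, and the log2 fold change was 0.33 ± 0.10 (adjusted p 0.0269). This call was lost without WT 1, WT 2, cKO 1 or cKO 3 (adjusted p 0.066 to 0.0977). Vamp3 (chr4:151047300-151057963, minus strand) was at 101, 118 and 119 CPM in WT against 72.5, 95.2 and 71.8 CPM in cKO. All cKO libraries were below WT, cKO 2 the least so, and the log2 fold change was -0.49 ± 0.14 (adjusted p 0.0216). It was lost without WT 2, WT 3, cKO 1 or cKO 3 (adjusted p 0.0569 to 0.086).

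The core neuronal partners of the synaptobrevins did not pass. Snap25 had a log2 fold change of 0.41 ± 0.32 (adjusted p 0.324) and Stx1a, encoding syntaxin 1A, 0.22 ± 0.23 (adjusted p 0.462). For Syt1 the value was 0.15 ± 0.30 (adjusted p 0.702). Each of these 3 genes was below 5 CPM in every day 9 library, and their groups overlapped. Syt11 (342 to 424 CPM in WT, 455 to 536 CPM in cKO) and the complexin gene Cplx2 (27.9 to 37.5 and 39.7 to 41.5 CPM) had all cKO libraries above WT, yet adjusted p of 0.0644 and 0.062. The other complexin gene, Cplx1, was at 0.21 ± 0.14 (adjusted p 0.239). Snap47, a widely expressed relative of Snap25, was at -0.16 ± 0.11 (adjusted p 0.275), and 11.6% of its exon bases are shared with Jmjd4 on the opposite strand.

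Of the 5 genes of the vesicle membrane and vesicle pool, 1 fell and 4 did not pass (median -0.04). The one that fell was Syn1 (chrX:20860511-20921004, minus strand), encoding synapsin I, which tethers vesicles to each other and to actin, and whose promoter is printed above with its matches. It was at 24.8, 25.1 and 28.3 CPM in WT against 20.1, 14.8 and 18.2 CPM in cKO. All cKO libraries were below WT, with a log2 fold change of -0.57 ± 0.15 (adjusted p 0.0163). Its relative Syn2 was at 66.7 to 72.4 CPM in WT against 63.5 to 71.9 CPM in cKO, with a log2 fold change of -0.04 ± 0.09. The vesicle protein genes Syp (synaptophysin, -0.35 ± 0.17, adjusted p 0.129) and Sv2a (0.24 ± 0.12, adjusted p 0.135) overlapped between the groups, as did the broadly expressed Sypl (-0.02 ± 0.15). An antisense gene, Gm14703, shares 16.8% of the exon bases of Syp.

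At the active zone 3 of 4 genes rose and none fell (median 1.14). Rab3a (chr8:70754679-70758677, plus strand), encoding a vesicle GTPase that binds RIM proteins, was at 12.4, 12.1 and 12.04 CPM in WT against 21.7, 25.2 and 20.3 CPM in cKO. The WT libraries lay close together and every cKO library was well above them, with a log2 fold change of 0.88 ± 0.13 (adjusted p 0.00119). Rims1 (chr1:22286251-22805994, minus strand) was at 1.67, 0.75 and 0.73 CPM in WT against 3.90, 2.19 and 2.39 CPM in cKO. These low levels did not overlap, with a log2 fold change of 1.39 ± 0.43 (adjusted p 0.0323). The call was lost without WT 2, WT 3, cKO 1 or cKO 3 (adjusted p 0.0589 to 0.113).

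Pclo (chr5:14514918-14863459, plus strand) encodes Piccolo, a very large active zone scaffold. It was at 4.32, 3.51 and 2.18 CPM in WT against 20.6, 5.28 and 20.3 CPM in cKO. The high cKO libraries were 1 and 3, those with most structural RNA, while cKO 2 was just above WT. The log2 fold change was 2.16 ± 0.59 (adjusted p 0.0299), and 0.63 ± 0.39 (adjusted p 0.281) with cKO 1 and cKO 3 left out together, a fit in which the lone cKO library is assumed to vary like WT. Leaving out any library but cKO 2 also ended the call (adjusted p 0.0633 to 0.119). The part of structural RNA in this value was not tested. Bsn, encoding Bassoon, the other giant of the active zone, was at 20.8 to 26.3 CPM in WT against 18.7 to 30.7 CPM in cKO, with a log2 fold change of 0.15 ± 0.20 (adjusted p 0.545).

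Of the 5 adhesion genes, 1 rose and 4 did not pass (median 0.08). Nlgn1 (chr3:25426215-26332460, minus strand), encoding the neuroligin of excitatory synapses, was at 10.7, 6.31 and 3.98 CPM in WT against 29.5, 19.7 and 28.4 CPM in cKO. Its lowest cKO library, cKO 2, was still above the highest WT library, and the log2 fold change was 1.87 ± 0.38 (adjusted p 0.0112). The call was lost only without WT 2 among the single libraries (adjusted p 0.0506). An antisense gene, A830092H15Rik, shares 9.16% of the Nlgn1 exon bases.

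The far more abundant Nlgn2, encoding the neuroligin of inhibitory synapses, was at 165 to 188 CPM in WT against 170 to 194 CPM in cKO, with a log2 fold change of 0.08 ± 0.11. Nlgn3, whose product is found at both kinds of synapse, was at 177, 203 and 213 CPM in WT against 246, 135 and 239 CPM in cKO. Here cKO 2 was below all WT libraries and cKO 1 and 3 were above them, and the log2 fold change was 0.06 ± 0.23. Without cKO 1 and cKO 3 it was -0.58 ± 0.17 (adjusted p 0.0468), so the direction of Nlgn3 depended on these libraries. A transcript named Gm21986 on the same strand shares 41.2% of the Nlgn3 exon bases, so its value is uncertain. Of the neurexin genes, whose products bind the neuroligins, Nrxn2 had a log2 fold change of -0.13 ± 0.11 and Nrxn3 0.60 ± 0.25 (adjusted p 0.365 and 0.0836).

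Among the postsynaptic scaffold genes, 3 of the 9 tested rose, 1 fell and 5 did not pass (median 0.41). Members of the Dlg family, whose proteins anchor receptors and adhesion molecules, moved in opposite directions. Dlg1 (chr16:31663443-31875129, plus strand), encoding SAP97, which also serves epithelial polarity, was at 18.9, 16.4 and 12.1 CPM in WT against 33.4, 31.0 and 26.4 CPM in cKO. No libraries overlapped, and the log2 fold change was 0.94 ± 0.18 (adjusted p 0.00519). Dlg4 (chr11:70016942-70047522, plus strand) was at 64.8, 70.6 and 63.3 CPM in WT against 46.1, 43.4 and 45.7 CPM in cKO. The cKO libraries were tightly grouped below WT, with a log2 fold change of -0.56 ± 0.09 (adjusted p 0.00266). Dlg3, encoding SAP102, was at 17.4 to 19.02 CPM in WT against 19.8 to 21.1 CPM in cKO, without overlap but with a log2 fold change of only 0.18 ± 0.11 (adjusted p 0.215). Dlg2 had 4 to 8 counts per library in WT and 0, 18 and 6 in cKO.

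Homer proteins link Shank to metabotropic glutamate receptors and calcium stores. Homer1 (chr13:93299635-93405129, plus strand) was at 11.8, 10.8 and 5.79 CPM in WT against 16.2, 19.03 and 16.04 CPM in cKO. WT 3 was the low library and no groups overlapped, with a log2 fold change of 0.86 ± 0.26 (adjusted p 0.0308). Its call was lost without WT 2, cKO 1, cKO 2 or cKO 3 (adjusted p 0.0715 to 0.0781). Homer2 (0.28 ± 0.13, adjusted p 0.113) lay above WT in all cKO libraries and Homer3 (-0.28 ± 0.12, adjusted p 0.0929) below, but neither passed, and the gene Ddx49 on the opposite strand shares 25.4% of the Homer3 exon bases.

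Shank proteins are the deepest layer of the postsynaptic density. Shank3 (chr15:89499623-89560261, plus strand) was at 19.6, 21.2 and 22.4 CPM in WT against 34.4, 32.2 and 31.7 CPM in cKO. Both groups were tight and far apart, with a log2 fold change of 0.63 ± 0.12 (adjusted p 0.00381). Shank1 was at 1.89, 1.86 and 1.98 CPM in WT against 3.58, 2.34 and 4.503 CPM in cKO, without overlap, but missed the threshold (0.82 ± 0.30, adjusted p 0.0524). Shank2 overlapped between the groups (0.41 ± 0.19, adjusted p 0.115).

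**Figure D2:**
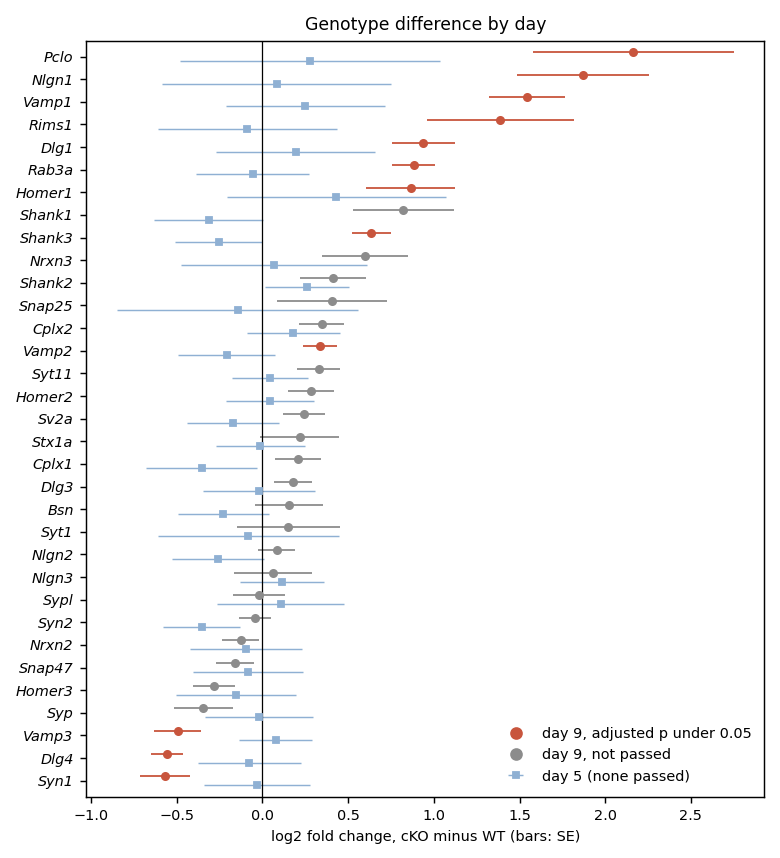
Log2 fold change, cKO minus WT, of the 33 synaptic genes tested at day 9 (circles, red where the adjusted p is under 0.05) and of the same genes at day 5 (squares), with bars for the SE. Pclo, Nlgn1, Vamp1 and Rims1 stand farthest to the right at day 9, and no day 5 value passed the test.

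Markers of other cell types also differed between the genotypes at day 9. The neuron marker sum was 325, 226 and 163 CPM in WT libraries 1, 2 and 3 and 618, 561 and 563 CPM in cKO. Map2, singled out after its values were seen, made up 228, 136 and 76.5 CPM of the WT sums and 423, 357 and 390.2 CPM of the cKO sums. The other 13 summed to 96.8, 89.4 and 86.3 CPM in WT against 195, 205 and 172 CPM in cKO, so the groups were apart with and without Map2. Of the 14 neuron markers, 11 were tested, 6 rose and none fell. Among them were Dcx, encoding doublecortin (7.72 ± 5.04 CPM in WT against 47.5 ± 7.92 CPM in cKO, SD, n = 3), Tubb3, a neuronal tubulin (26.7 ± 5.29 and 58.4 ± 1.67 CPM), and Rbfox3, encoding NeuN (1.46 ± 0.23 and 3.32 ± 0.69 CPM). Of 12 progenitor markers 2 were higher and 7 lower, and of 10 astrocyte markers 7 were higher and 1 lower. Of 13 tested oligodendrocyte lineage markers 9 were higher and 4 lower, the lower ones being Olig1, Olig2, Cspg4 and Pdgfra, named after their values were seen. The part of these markers in the synaptic values was not tested.

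Shares within families do not depend on how the libraries are scaled, and they differed without overlap where members of a family moved apart. Of the summed TPM of Dlg1 to Dlg4 at day 9, Dlg4 made up 74.9%, 76.4% and 75.8% in WT and 56.4%, 54.3% and 57.2% in cKO. Dlg1 went from 11.3% ± 2.26 in WT to 28.1% ± 0.978 in cKO (SD, n = 3). For both genes every cKO library lay outside the WT range.

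Among Vamp1, Vamp2 and Vamp3, the Vamp3 share was 55.4% ± 2.98 in WT and 38.9% ± 4.78 in cKO, the Vamp2 share 42.1% ± 2.98 and 53.7% ± 2.16, and the Vamp1 share 2.54% ± 0.290 and 7.32% ± 2.70. Within the Homer genes, Homer1 held 16.6% ± 4.35 in WT and 29.9% ± 2.42 in cKO, and Homer3 71.7% ± 4.81 and 55.7% ± 2.11. The groups were apart for all of these. Syn1 held 30.1% ± 0.611 of the synapsin pair in WT and 22.8% ± 2.06 in cKO. Pclo held 13.5% ± 4.84 of the Bassoon and Piccolo pair in WT and 43.2%, 21.1% and 36.8% in cKO libraries 1, 2 and 3. Nlgn1 held 2.83% ± 1.43 of the neuroligins in WT and 8.91% ± 0.613 in cKO.

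Among the Shank genes, the Shank3 share overlapped between the groups, at 68.5% ± 1.84 in WT and 68.9% ± 6.70 in cKO, and so did the Shank1 share. The Shank2 share did not, at 20.82%, 26.3% and 20.99% in WT and 17.7%, 17.4% and 20.79% in cKO, with the nearest libraries almost equal. Cplx1 held 55.1% ± 6.08 of the complexins in WT and 52.6% ± 2.08 in cKO, with overlap. With 3 libraries against 3, the exact two-sided permutation test cannot go below p = 0.1, which is the value for each share whose groups did not overlap.

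**Figure D3:**
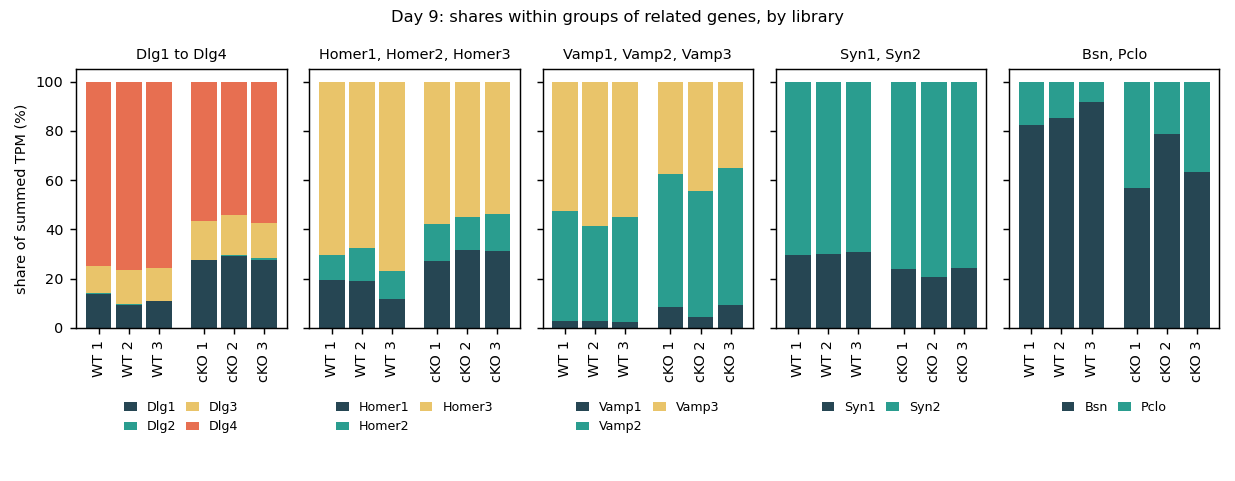
Share (%) of the summed TPM of related genes held by each gene in the 6 day 9 libraries, 1 bar per library. In cKO the Dlg4 share is 54.3% to 57.2% against 74.9% to 76.4% in WT, and the shares of Homer1, Vamp1 and Pclo are larger in each cKO library than in any WT library.

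At day 5 no synaptic gene passed the test. Of the 37, 35 were tested (all but Slc17a6 and Slc32a1), 0 had an adjusted p under 0.05 and 0 an unadjusted p under 0.05 in edgeR, and DESeq2 and limma-voom also called 0. The background was low too, since 0% of 14849 genes were higher and 0.00673% lower, the latter being Lmnb1 alone. The log2 fold changes ran from -0.38 for Dlg2 to 0.43 for Homer1, with a median of -0.06 for the set and 0.01 for all genes tested. Syn2 was the only gene of the set whose groups did not overlap (37.2 to 51.6 CPM in WT, 31.7 to 37.1 CPM in cKO, log2 fold change -0.35 ± 0.23), beside 1.5% of all genes tested with cKO above WT, 1.35% with cKO below and 2.85% in either direction. Among the genes called at day 9, the day 5 value was 0.43 ± 0.64 for Homer1, 0.28 ± 0.76 for Pclo, 0.25 ± 0.46 for Vamp1 and 0.08 ± 0.67 for Nlgn1. It was -0.26 ± 0.25 for Shank3, -0.21 ± 0.28 for Vamp2 and 0.08 ± 0.21 for Vamp3.

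The spread at day 5 came mostly from WT 1 and cKO 2, which stood apart together from the other 4 libraries. Pclo was at 22.0, 11.0 and 6.71 CPM in WT against 6.89, 34.7 and 6.63 CPM in cKO. Nlgn1 was at 42.9, 16.7 and 14.8 CPM in WT against 14.7, 51.4 and 12.6 CPM in cKO, and Homer1 at 33.7, 14.4 and 11.7 and at 11.5, 50.2 and 18.9 CPM. In each of these genes WT 1 and cKO 2 were the high libraries of their groups. Nrxn2 ran the other way, at 268, 459 and 420 CPM in WT against 461, 236 and 375 CPM in cKO.

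In all, 15 of the 35 tested genes were highest in both WT 1 and cKO 2 within their groups, and 14 were lowest in both. Over all genes tested these patterns held for 36.9% and 40.1%, so the pattern was not particular to synaptic genes. The 15 high genes, among them Snap25, Rims1, Dlg1 and Nrxn3, had a median gene span of 107047 bases (12569 to 1972576). The 14 low ones, among them Vamp2, Rab3a, Syp and Dlg4, had a median of 29100 bases (3895 to 147105). These ranges overlapped, and the spans of all genes with either pattern were not compared. Neuron markers summed to 1173 CPM in WT 1 and 1224 CPM in cKO 2 and to 487 to 617 CPM in the other 4 libraries, and Map2 alone made up 737 and 882 CPM of the sums in WT 1 and cKO 2. Without Map2 the other 13 summed to 436, 254 and 238 CPM in WT against 301, 342.5 and 330.5 CPM in cKO, so that only WT 1 stood apart. Tubb3 was lowest in WT 1 (21.2 CPM) and cKO 2 (16.2 CPM) within their groups. The part of these markers in the synaptic values was not tested. With WT 1 and cKO 2 both left out, 0 synaptic genes passed at day 5.

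**Figure D4:**
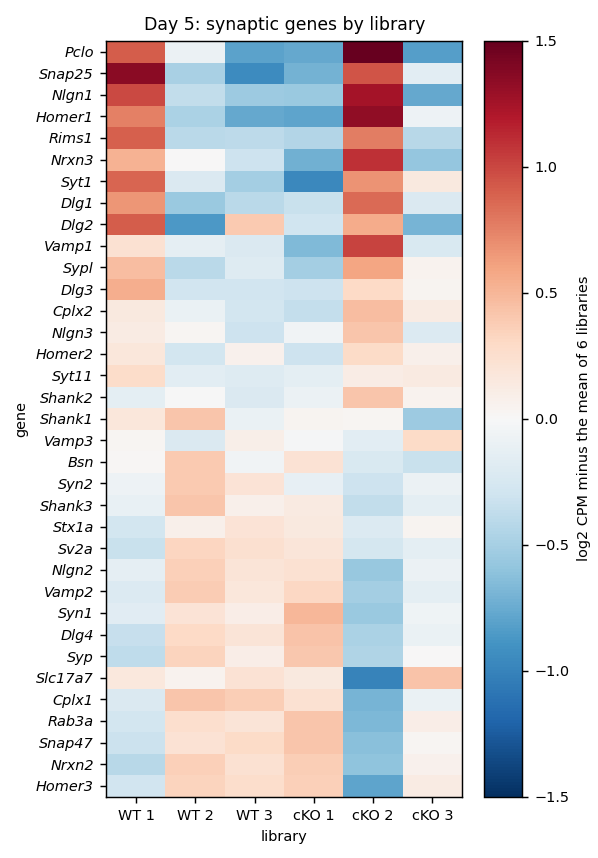
Log2 CPM of the 35 synaptic genes tested at day 5, each minus its mean over the 6 libraries, with libraries in columns and genes ordered by their values in WT 1 and cKO 2. WT 1 and cKO 2 share their high genes (15 of 35) and their low genes (14 of 35).

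The genotype difference was then compared between the days. The contrast was the day 9 log2 fold change minus that of day 5, fitted on all 12 libraries and 15323 genes, of which 2.57% were called higher and 5.14% lower at day 9 (7.71% in either direction). Of the synaptic genes 0 passed, among 35 tested in edgeR and in limma-voom and 33 with an adjusted p in DESeq2, and 5 had an unadjusted p under 0.05 in edgeR (Vamp1, Vamp3, Rab3a, Shank1 and Shank3). The smallest adjusted p was that of Shank3 (0.058), whose log2 fold change was -0.26 ± 0.25 at day 5 and 0.63 ± 0.12 at day 9, a difference of 0.89 ± 0.25. Rab3a differed by 0.94 ± 0.36 (adjusted p 0.174) and Vamp1 by 1.30 ± 0.55 (adjusted p 0.228). For Pclo and Nlgn1 the differences were 1.89 ± 1.04 and 1.79 ± 0.85 (adjusted p 0.374 and 0.297).

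A difference between the days was therefore not shown for any synaptic gene, although calls were made at day 9 alone. The result turned on the day 5 libraries. Without cKO 2 of day 5, Vamp1, Pclo and Nlgn1 passed, and without WT 1 or cKO 1 of day 5 Shank3 passed (adjusted p 0.0414 and 0.0302). With WT 1 and cKO 2 of day 5 left out together, an alternative chosen after seeing the data, Vamp1, Rab3a, Nlgn1 and Shank3 passed.

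Other genes of the same machinery, from lists of relatives, showed calls in both directions at day 9 and none at day 5. Their counts stand beside 21% of all genes tested higher and 22.6% lower at day 9. Of 21 tested genes of vesicle fusion and priming, 10 rose and 2 fell (median 0.35). Doc2b, encoding a calcium sensor of release, was at 0.13 ± 0.05 CPM in WT against 1.001 ± 0.35 CPM in cKO (SD, n = 3). Its WT values of 0.113, 0.179 and 0.0872 CPM lay at or near 3 counts (0.0848, 0.108 and 0.0872 CPM). The size of this rise is therefore uncertain. Cadps, a priming factor of dense core vesicles, was at 11.4 ± 1.08 and 17.9 ± 1.22 CPM. Vamp8, an endosomal SNARE, fell (-1.39 ± 0.45, SE), as did Napa, which takes spent SNARE complexes apart (-0.35 ± 0.12). Of 8 further synaptotagmin genes tested, Syt7 fell (-0.40 ± 0.12) and the others did not pass.

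Of 20 tested genes of the vesicle membrane and of endocytosis, 8 rose and 3 fell (median 0.23). The smallest adjusted p belonged to the rise of Dnm3, a dynamin gene (18.4 ± 1.99 CPM in WT, 69.0 ± 12.6 CPM in cKO), and the fall of Sh3gl2, encoding endophilin (50.98 ± 5.38 and 22.6 ± 2.06 CPM). Itsn1 rose as well (0.80 ± 0.12) and Syngr2 fell (-1.02 ± 0.14). Of 20 further active zone genes 6 rose and 5 fell (median 0.55). The ELKS genes Erc1 (1.17 ± 0.10) and Erc2 (1.58 ± 0.19) rose, whereas Rab3b, a relative of Rab3a, fell from 49.96 ± 6.71 to 11.1 ± 0.327 CPM and Rph3a, encoding the Rab3 effector rabphilin, from 29.5 ± 3.21 to 7.72 ± 1.38 CPM. Rab3a and Rab3b, of the same GTPase family, thus moved in opposite directions.

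Adhesion relatives had the highest median of these lists (0.78), with 15 of 29 tested higher and 2 lower. Cbln2, whose secreted product bridges neurexins to receptors, was at 0.56 ± 0.15 CPM in WT against 11.2 ± 0.834 CPM in cKO, and Mdga1, which blocks neuroligins, at 7.24 ± 0.590 and 37.9 ± 5.47 CPM. Clstn1 and Ptprf fell (-0.43 ± 0.11 and -0.38 ± 0.10). Of 23 tested scaffold relatives 7 rose and 4 fell (median 0.22). Dlgap1, whose product joins PSD-95 to Shank, rose (1.01 ± 0.14), as did Iqsec1 (0.77 ± 0.11). Dlgap3, a relative of Dlgap1, fell (-1.14 ± 0.10). Camk2b, encoding a kinase subunit of the postsynaptic density, fell from 172 ± 33.2 to 40.5 ± 3.04 CPM.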

How the data were processed

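Polyadenylated RNA of sorted mouse neural progenitor cells was sequenced in 12 libraries (WT and cKO, day 5 and day 9, 3 each). The authors made the estimated counts and the TPM values of each gene with RSEM and Bowtie2 on mm10, per the submitters' processing notes, and deposited 1 table of each kind per day. Which annotation, trimming and strand setting they used is not given in the sources, so reads of overlapping or antisense genes cannot be told apart, and gene values do not separate isoforms. Features at day 5 carried Ensembl identifiers (42425 of 43309 paired with a symbol) and at day 9 symbols (41839 of 42802 known). Gene positions and exon overlaps come from GENCODE M21 (GRCm38).

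The deposited counts were rounded and tested with edgeR 4.0.16 in R 4.3.3 (filterByExpr by group, TMM, robust glmQLFit, glmQLFTest, Benjamini-Hochberg adjustment over all genes tested, threshold 0.05). The 6 libraries of a day were fitted without the other day, and the day difference was fitted on all 12. An SE is the absolute log2 fold change over the square root of F. Deposited TPM served for levels and family shares (levels after rescaling without 12 structural RNA features) and for alternative tests with limma 3.58.1 on log2(TPM + 1) or log2(TPM + 0.1), a scale on which low genes' changes are understated. DESeq2 1.42.0, limma-voom, other scalings, no filter on low counts, a replicate block and libraries left out were the other alternatives. The fits were also run on simulated counts, with the same relative spread for every gene and no library standing apart. That simulation cannot show how the fits handle the uneven libraries seen here. No level is compared across days, because each day has its own table.

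The members and the gene lists were chosen with earlier results of these data known. Per-library values are given for members past the threshold at day 9 whose groups do not overlap, and at most 2 genes per direction are named from each other synaptic list and the REST list, those with the smallest adjusted p. Of a cell type marker list at most 3 defining markers are named as the best known and not by their p. Other markers were named by their values: Map2, Gpr17, Olig1, Olig2, Cspg4 and Pdgfra, and Aif1, C1qa, Cdh5 and Lum for being at 0. A gene that this rule took is not reported here.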

Additional observations from a re-analysis of the deposited data

How the results depend on the processing

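At day 9, 9 members higher and 3 lower became 9 and 3 with DESeq2 and without the structural RNA features, 8 and 3 with limma-voom, 10 and 3 with RLE size factors (Syt11 added), and 7 and 3 without the filter on low counts. Replicate numbers did not pair the libraries (same-number correlations of -0.721, -0.498 and 0.534 at day 5 and -0.00138, -0.2 and -0.0628 at day 9). With the number as a replicate block, 8 were higher and 3 lower (Pclo lost), and 0 passed at day 5 or for the day difference. Limma on TPM + 1, TPM + 0.1 and edgeR on library totals gave 0 higher and 0 lower, and rescaled TPM 3 higher (Vamp1, Pclo, Nlgn1) and 1 lower (Dlg4). Leaving out 1 library at a time gave 5 to 10 higher and 2 to 3 lower, and leaving out cKO 1 and cKO 3 together 4 higher and 3 lower. For the day difference leaving out 1 library gave 0 to 3 passed, and leaving out WT 1 and cKO 2 of day 5, an alternative chosen after seeing the data, gave 4. At day 5, 0 passed in every alternative.

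The median over all genes shifted by -0.79 (TPM + 1), -1.02 (TPM + 0.1), -0.31 (rescaled TPM) and -0.51 (library totals) on the log2 scale at day 9. The members' median stayed 0.16 to 0.29 above that of all genes in every alternative. A sign change was counted as a reversal where the value passed the threshold on either side. Of 204 alternative values of the 12 called members, 128 kept their call, 68 lost it and 8 reversed; all 8 were on TPM or library totals. These were Homer1 at -0.095 and -0.18 and Shank3 at -0.36 and -0.48 (TPM + 1, TPM + 0.1), and Vamp2 at -0.68, -0.70, -0.012 (rescaled TPM) and -0.21 (library totals). Relative to the all-gene median these values were positive (Homer1 0.69 and 0.84, Shank3 0.42 and 0.55, Vamp2 0.10, 0.32, 0.30 and 0.29). Nlgn3, not called, became -0.58 without cKO 1 and cKO 3. Among the 21 members not called, 73 of 357 values changed sign, 56 of them on TPM or library totals. Depth limits the low genes most, since 3 counts are 0.468 CPM in cKO 1 and 0.422 CPM in cKO 3 at day 9 and 0.0754 to 0.108 CPM in the other libraries.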

Other observations

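The genes of REST, the repressor that binds RE1 sites and silences neuronal genes outside neurons, and of its partners were also measured. Of 11 such genes tested at day 9, 4 were higher in cKO, 1 was lower and 6 did not pass (median log2 fold change 0.12), and 0 passed at day 5. Over all genes tested at day 9, 21% were higher and 22.6% lower (43.6% in either direction), so this count is near the background. Rest itself, named as the repressor and not by its p, was at 13.3, 15.99 and 14.6 CPM in WT against 28.2, 17.9 and 24.1 CPM in cKO, with a log2 fold change of 0.66 ± 0.18 (SE, edgeR adjusted p 0.019). All cKO libraries were above WT, cKO 2 the least so. The corepressor gene Rcor3 rose (0.77 ± 0.15), and the histone deacetylase gene Hdac1 fell (-0.38 ± 0.09).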
